A study of Salmo salar with 18 samples.

Results

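The interval described here is the stretch of chromosome 27 of the Atlantic salmon genome around abcb3, a gene of the antigen presentation pathway. Its members were chosen by position, as the 56 genes of 69389 in the count files whose first start lies from 10000000 to 11200000 on chromosome 27 (assembly Ssal_v3.1), and 1107 other genes lie on the rest of that chromosome. The interval was selected on the measured difference between the diets at 1 h post-stress, in which abcb3 and its neighbours stood out, so that difference is given below as a description without p-values. Gill RNA was sequenced from salmon parr that had eaten either LAN4, the control diet with a hydrolyzed yeast product (Debaryomyces hansenii) added, or the control diet alone (CD), for 7 weeks and 1 more week of acclimatization. Fish of both diets were sampled at 1 h after being netted out of the water for 1 min (short hypoxia stress) or before it (pre-stress), which makes 4 groups of 3 fish and 12 libraries: LAN4 at 1 h, CD at 1 h, LAN4 at pre-stress and CD at pre-stress. Another 6 libraries from 6 h post-stress held 0 counts for every member and were left out, except in 1 alternative fit. Their total counts, 14686078 to 15102528, lay within the range of the other 12. Among the members at 0 there was ENSSSAG00000099702, with 6304 to 16860 counts in the 12 libraries used. Why every member read 0 at 6 h was not tested. Tank membership of the sequenced fish is not given in the paper. For each diet it describes 7 tanks of 6 fish, and 6 fish taken at each sampling time. The 3 fish of a group may thus all come from 1 tank, and tank and group could then not be told apart. The p-values measure the spread between these fish only.

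Cells show fragments of their own proteins on the surface through MHC class I molecules. In mammals, TAP2, the counterpart of abcb3 (synonym tap2), forms with TAP1 a pump that carries peptides into the endoplasmic reticulum, and tapasin, the product of tapbp, holds empty class I molecules beside that pump. In salmon the classical class I region lies on chromosome 27 with tap2 and tapbp near it, and class I regions are known in many vertebrates for large differences between individuals. In bulk gill tissue, fewer cells of a type and less RNA per cell cannot be told apart. A count also depends on whether the fragments of a fish align to the copy of the gene in the reference genome, and fewer fragments and fewer aligned fragments cannot be told apart in these files.

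Counted fragments numbered from 10128626 to 19851609 per library. All 1 h libraries were run on lane 1 and all pre-stress libraries on lane 3. The diets are therefore compared within a lane, while sampling time and lane cannot be told apart. Of the names on the list of gill epithelium and ionocyte markers, 7 genes were matched, and their summed level lay between 446 and 907 CPM (counts per 1000000 of the normalized library) over the 12 fish, with cldn10b at 0 in each. Skeletal muscle markers (4 genes matched) summed to between 14.7 and 34.8 CPM in LAN4 against 0 to 14.0 CPM in CD at 1 h, and to between 34.5 and 41.3 CPM in LAN4 against 5.05 to 22.6 CPM in CD at pre-stress. Erythrocyte markers (5 genes) summed to between 825 and 941 CPM in LAN4 and between 621 and 728 CPM in CD at 1 h, without overlap. At pre-stress they summed to between 711 and 887 CPM in LAN4 and between 687 and 1006 CPM in CD. The part of these marker differences in the values below was not tested.

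The members ranged from silent to abundant. With a member called on in a library at 30 counts or more and off at 3 counts or fewer, 38 of the 56 members were on in at least 1 library, and 32 of them were on in all 12. A further 11 stayed at 3 counts or fewer in every library, 3 of these at 0 throughout, and 7 reached more than 3 counts but never 30. Among the silent ones was qrfp, which encodes the precursor of a neuropeptide, with at most 2 counts. Of the members, 32 could be paired with a RefSeq gene by position, and 6 of these have a symbol other than a LOC number: tapbp, abcb3, brd2, slc39a7, qrfp and zhx2b. The most abundant member per length was ENSSSAG00000099702, with a mean of 586 CPM per kb of exon over the 12 fish, followed by LOC106588387 (264 CPM per kb) and LOC106588377 (255 CPM per kb). On the same scale abcb3 averaged 5.21 CPM per kb and tapbp 14.5 CPM per kb. The member nearest the lower edge, ENSSSAG00000071136 (start 10012959), had 0 to 8 counts, and the gene just outside it, LOC106588416 (start 9956536), had 641 to 1487. At the upper edge, ENSSSAG00000078980 inside (start 11162148) had 1728 to 2541 counts and ENSSSAG00000095165 outside (start 11280677) had 3 to 11.

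Only 3 members were on in some fish and off in others: abcb3, LOC123730958 and LOC106588400. Over all genes, 1.2% showed such a pattern, or 2.79% of the 29733 genes on in at least 1 library, against 7.89% of the 38 members on in at least 1 library. The members abcb3 and LOC123730958 were off in the same 3 fish, those fed CD and sampled at 1 h. These fish belong to the contrast that chose the interval, so the share among members is not independent of that choice. The member LOC106588400 was off in a single other fish, CD fish 3 at pre-stress.

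The transporter gene abcb3 (ENSSSAG00000042201, plus strand, 10536644 to 10543577) had 259, 246 and 200 counts in the LAN4 fish at 1 h and 0 in each of the 3 CD fish at 1 h. At pre-stress it had 316, 229 and 165 counts in LAN4 and 566, 458 and 273 in CD. In CPM these are 15.4, 16.0 and 13.1 in the LAN4 fish and 0 in the CD fish at 1 h, and 20.2, 15.1 and 16.2 in LAN4 and 34.4, 26.8 and 20.4 in CD at pre-stress. The gene was thus present in 9 fish and undetected in the 3 fish of a single group. Against a floor of 3 counts per library, it was at least 82.8-fold higher in LAN4 than in CD at 1 h, and CD at 1 h was at least 152-fold lower than CD at pre-stress. Such a floor covers at most counting error, and not differences between fish or in alignment. Molecular identifiers are not mentioned in the paper.

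The next member along the chromosome, LOC123730958 (ENSSSAG00000115503, plus strand, 10558363 to 10564750), followed the same fish. It had 646, 736 and 629 counts in LAN4 and 0 in each CD fish at 1 h, and 758, 664 and 315 in LAN4 and 1218, 803 and 515 in CD at pre-stress. The level in LAN4 at 1 h, 42.5 ± 4.94 CPM (SD, n = 3), was at least 237-fold that in CD, and CD at 1 h was at least 297-fold lower than CD at pre-stress (53.2 ± 18.6 CPM). These were the only 2 genes of the 69389 that were off in all 3 CD fish at 1 h and on in the other 9, and for none of the other 3 groups did any gene (0 genes) show that pattern.

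On the other side of abcb3, LOC123730988 (ENSSSAG00000096214, plus strand, 10533315 to 10535804) was low but not silent in the same fish. It measured 44.5, 43.8 and 46.1 CPM in LAN4 and 8.27, 7.73 and 9.90 CPM in CD at 1 h. At pre-stress it measured 49.8, 35.5 and 37.4 CPM in LAN4 and 82.8, 54.2 and 43.3 CPM in CD. All 3 CD fish at 1 h lay below each of the other 9 fish. The mean in LAN4 was 5.19-fold that in CD at 1 h (log2 fold change 2.38, standard error 0.22), and the mean in CD at 1 h was 0.144 of that in CD at pre-stress. These 3 members lie side by side on the plus strand with no other gene of the files between them, and their starts are within 21.7 kb after and 3.3 kb before that of abcb3.

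**Figure D1:**
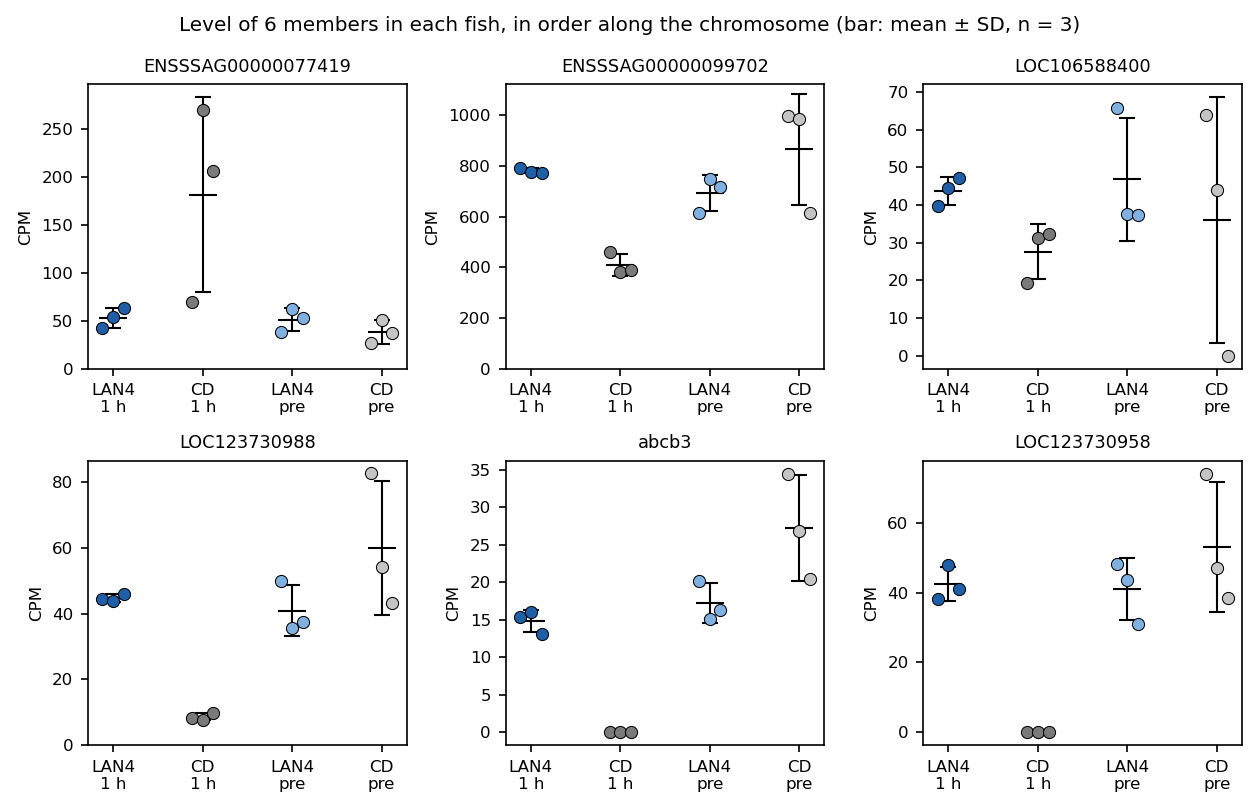
Level of 6 members in each fish, in CPM on a linear axis. Points are fish, the horizontal bar is the mean and the whiskers the SD (n = 3 fish per group). For abcb3 and LOC123730958 the 3 CD fish at 1 h sit at 0, and for LOC106588400 CD fish 3 at pre-stress sits at 0.

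Further upstream, ENSSSAG00000099702 (plus strand, 10474942 to 10510971) was present in every fish and lower in the same group. It measured 792, 775 and 773 CPM in LAN4 and 459, 380 and 388 CPM in CD at 1 h, without overlap. At pre-stress LAN4 had 614, 749 and 718 CPM and CD had 999, 987 and 614 CPM, so the diets overlapped. The mean in LAN4 was 1.91-fold that in CD at 1 h, and the mean in CD at 1 h was 0.472 of that in CD at pre-stress.

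The member between ENSSSAG00000099702 and tapbp, ENSSSAG00000077419 (plus strand, 10426981 to 10465906), stood out the other way, in some fish of that group only. It measured 42.2, 54.2 and 62.7 CPM in LAN4 and 69.7, 269 and 206 CPM in CD at 1 h, and 38.5, 61.8 and 52.5 CPM in LAN4 and 26.4, 50.6 and 36.9 CPM in CD at pre-stress. Fish 2 and 3 of CD at 1 h were far above the rest, while fish 1 lay just above the highest LAN4 fish. The spread in CD at 1 h was accordingly wide, 182 ± 102 CPM (SD, n = 3).

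Tapasin did not follow this pattern. Its gene tapbp (ENSSSAG00000077407, minus strand, 10412120 to 10417481), on the far side of ENSSSAG00000077419, measured 57.4, 54.4 and 58.6 CPM in LAN4 and 60.5, 57.7 and 53.3 CPM in CD at 1 h. At pre-stress it measured 71.6, 50.6 and 71.5 CPM in LAN4 and 53.4, 64.7 and 63.6 CPM in CD. The diets overlapped at both times, and over the 12 fish the highest level was 1.41-fold the lowest. On the other flank, brd2, which encodes a reader of acetylated histones, measured between 37.0 and 48.6 CPM in the 12 fish. The zinc transporter gene slc39a7 measured between 63.0 and 75.4 CPM.

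A separate gap was seen in 1 fish. The gene LOC106588400 (ENSSSAG00000085574, minus strand, 10518241 to 10521084) measured 39.8, 44.5 and 47.2 CPM in LAN4 and 19.2, 31.3 and 32.3 CPM in CD at 1 h. At pre-stress it measured 65.7, 37.6 and 37.2 CPM in LAN4, and 63.8, 44.0 and 0 CPM in CD. CD fish 3 at pre-stress had 0 counts, while the other 11 fish had between 278 and 1048. It was at least 241-fold lower than the mean of the other CD fish at pre-stress, with the floor of 3 counts in its place. The next member, LOC106588398 (minus strand, 10521614 to 10527869), was also lowest in that fish, with 6.94 CPM against 18.9 and 19.3 CPM in the other CD fish at pre-stress and 11.2 to 20.5 CPM elsewhere. It was present there, and LOC106588399 on the plus strand, which overlaps it, measured 39.1 CPM in that fish and 28.2 to 58.0 CPM over all 12. Over all genes, 11 were off in CD fish 3 at pre-stress alone and on in the other 11 fish, 7 of them on unplaced scaffolds. The count of such genes was between 0 and 4 for each of 10 other fish and 35 for CD fish 3 at 1 h, in which no member (0 members) was off alone.

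**Figure D2:**
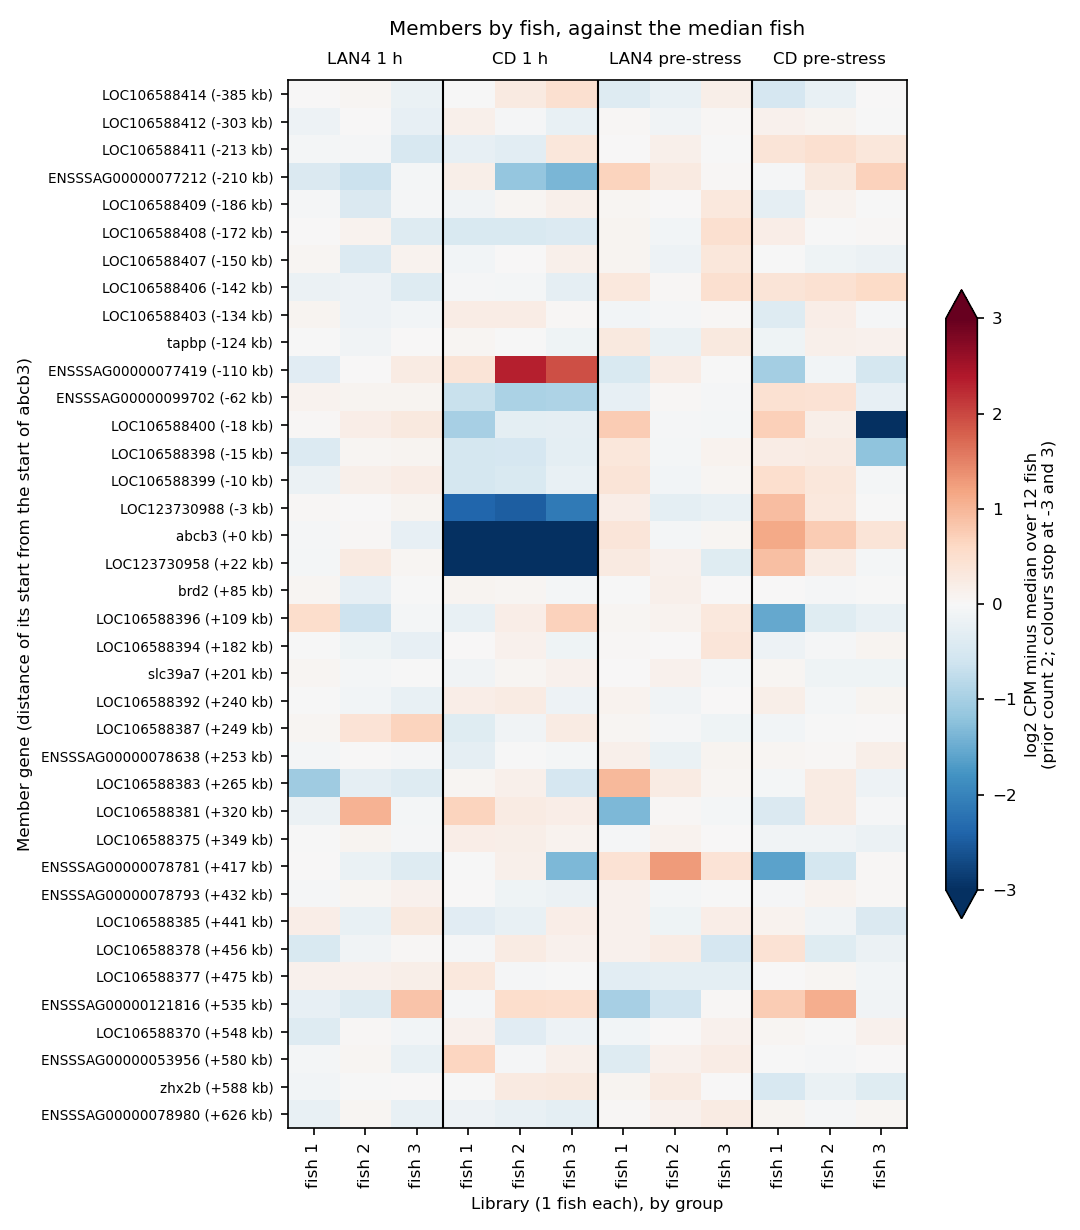
Members with a mean of at least 1 CPM (38 genes, in order along the chromosome, rows) in the 12 fish (columns, by group), as log2 CPM with a prior count of 2 minus the median of the 12 fish. Blue is below and red above the median fish. The darkest blue cells are abcb3 and LOC123730958 in the 3 CD fish at 1 h and LOC106588400 in CD fish 3 at pre-stress.

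Fish by fish, members with a mean of at least 1 CPM were counted as shifted where they lay 2-fold or more from the median of the 12 fish. In the LAN4 fish at 1 h, 2.63%, 2.63% and 0% of these 38 members were shifted, against 1.97%, 2.11% and 2.54% of all genes of at least that level. In the CD fish at 1 h, 10.5%, 13.2% and 15.8% of the members were shifted, against 2.28%, 1.75% and 3.15% of all genes. These fish are those in which the interval was selected, and the 3 neighbouring members account for 3 of the 4, 5 and 6 shifted members in them. In the LAN4 fish at pre-stress the members reached 2.63%, 2.63% and 0% (all genes 2.08%, 2.80% and 2.71%). In the CD fish at pre-stress they reached 10.5%, 2.63% and 5.26% (all genes 3.56%, 1.52% and 2.67%). Over all fish, 12 of the 38 members (31.6%) were shifted in at least 1 fish, against 12.4% of the 29873 genes of that level, and 26 members were shifted in none. This share includes the CD fish at 1 h, so it is not independent of the selection either. The median SD within groups was 0.22 on the log2 scale for the members and 0.20 for all genes.

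**Figure D3:**
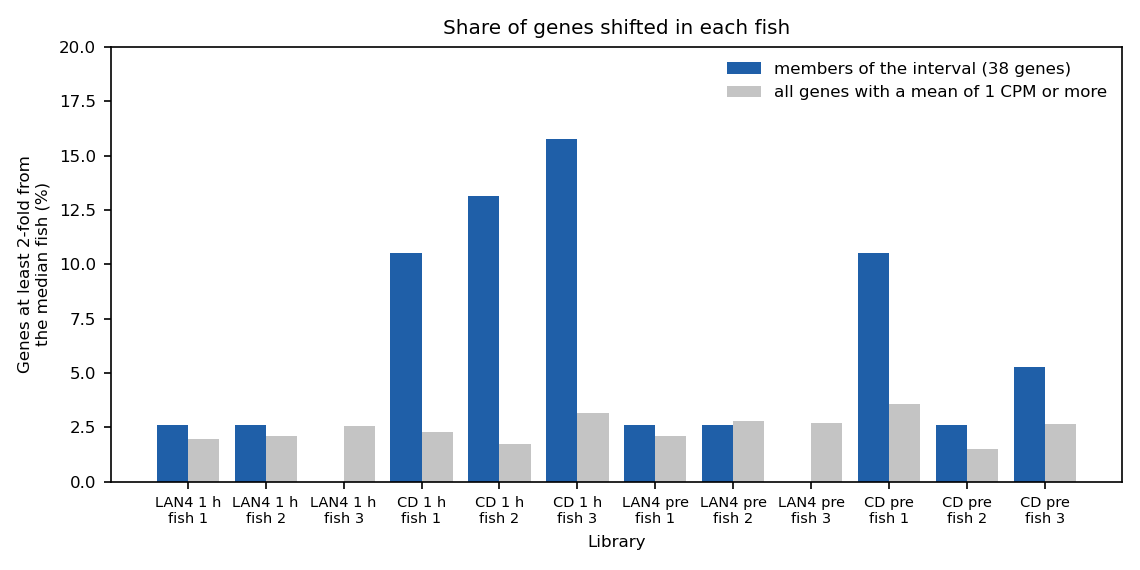
Share of genes at least 2-fold from the median fish, for each of the 12 libraries (bars from 0, in percent). The members of the interval reach between 10.5% and 15.8% in the CD fish at 1 h and 10.5% in CD fish 1 at pre-stress, and at most 5.26% in the other 8 fish, while all genes stay at or below 3.56%.

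Other members were at an extreme in 1 or 2 fish. CD fish 1 at pre-stress had the highest abcb3 level, 34.4 CPM, and the lowest of LOC106588396 (minus strand, 10645732 to 10694689), 30.4 CPM against 68.6 and 75.3 CPM in the other CD fish at pre-stress. In LAN4 at pre-stress LOC106588396 measured 92.2, 95.6 and 110 CPM, so LAN4 lay above CD there, while at 1 h the diets overlapped (57.4 to 129 CPM in LAN4 and 76.0 to 143 CPM in CD). LAN4 fish 1 at pre-stress combined the highest LOC106588383 level, 66.2 CPM, with the lowest of LOC106588381, 5.36 CPM. The lowest LOC106588383 level, 15.9 CPM, was in LAN4 fish 1 at 1 h, and the highest of LOC106588381, 28.5 CPM, in LAN4 fish 2 at 1 h. CD fish 1 at pre-stress was also the highest fish for LOC123730958, LOC123730988, ENSSSAG00000099702 and LOC106588399. It was the lowest fish for ENSSSAG00000077419, ENSSSAG00000078781 and zhx2b. This fish was thus at an extreme for many of the members named here, on both sides of abcb3. It was not so throughout, since for tapbp, LOC106588400, LOC106588398, LOC106588383 and LOC106588381 the lowest and highest levels were in other fish.

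The other members with a wide range were low. ENSSSAG00000078781 ranged between 0.487 CPM in CD fish 1 at pre-stress and 4.41 CPM in LAN4 fish 2 at pre-stress. ENSSSAG00000121816 ranged between 0.510 and 2.58 CPM and ENSSSAG00000077212 between 0.738 and 3.51 CPM. At this depth such levels rest on few counts, with a lowest count of 8 for each of the first 2. Among the better measured, LOC106588399 spanned 2.05-fold and ENSSSAG00000053956 also 2.05-fold over the 12 fish.

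At pre-stress, where the fish differ from those used to select the interval, the diets were tested. A total of 40 members passed the filter on low counts. By the quasi-likelihood test of edgeR with Benjamini-Hochberg adjustment over 33024 genes, 0 members were called higher and 0 lower in LAN4 than in CD at an adjusted p under 0.05, where 0.00606% of all genes were called (2 genes). DESeq2 also called 0 members. An unadjusted p under 0.05 was reached by 7 of the 40 members (17.5%) and by 9.4% of all genes. The median log2 fold change of the members was 0.04, and over all genes it was -0.00. The median size of the change was 0.18 for the members and 0.16 for all genes. The CPM of the diets did not overlap for 8 members (20%), 5 higher and 3 lower in LAN4, where 16.3% of all genes did not overlap.

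The lowest adjusted p among members at pre-stress was that of zhx2b, which encodes a transcription factor with zinc fingers and homeodomains (minus strand, 11124170 to 11158969). It measured 19.8, 22.3 and 19.0 CPM in LAN4 and 13.3, 16.3 and 14.6 CPM in CD at pre-stress, which is 0.47 higher in LAN4 on the log2 scale with a standard error of 0.12 (edgeR adjusted p = 0.268). All 3 LAN4 fish were above all 3 CD fish, but the difference did not pass the adjusted threshold. For abcb3 the LAN4 fish were all below the CD fish at pre-stress, with 17.2 ± 2.66 CPM in LAN4 and 27.2 ± 7.04 CPM in CD (SD, n = 3 each), a log2 difference of -0.66 with a standard error of 0.19 (edgeR adjusted p = 0.302). The lowest CD fish (20.4 CPM) was close to the highest LAN4 fish (20.2 CPM). For its neighbours LOC123730988 and LOC123730958 the log2 fold changes were -0.55 and -0.37 (standard errors 0.20 and 0.24), and the diets overlapped. ENSSSAG00000078766 (10941715 to 10944151) had 21, 15 and 17 counts in LAN4 and 6, 11 and 6 in CD at pre-stress, a log2 difference of 1.42 with a standard error of 0.42 (edgeR adjusted p = 0.305).

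**Figure D4:**
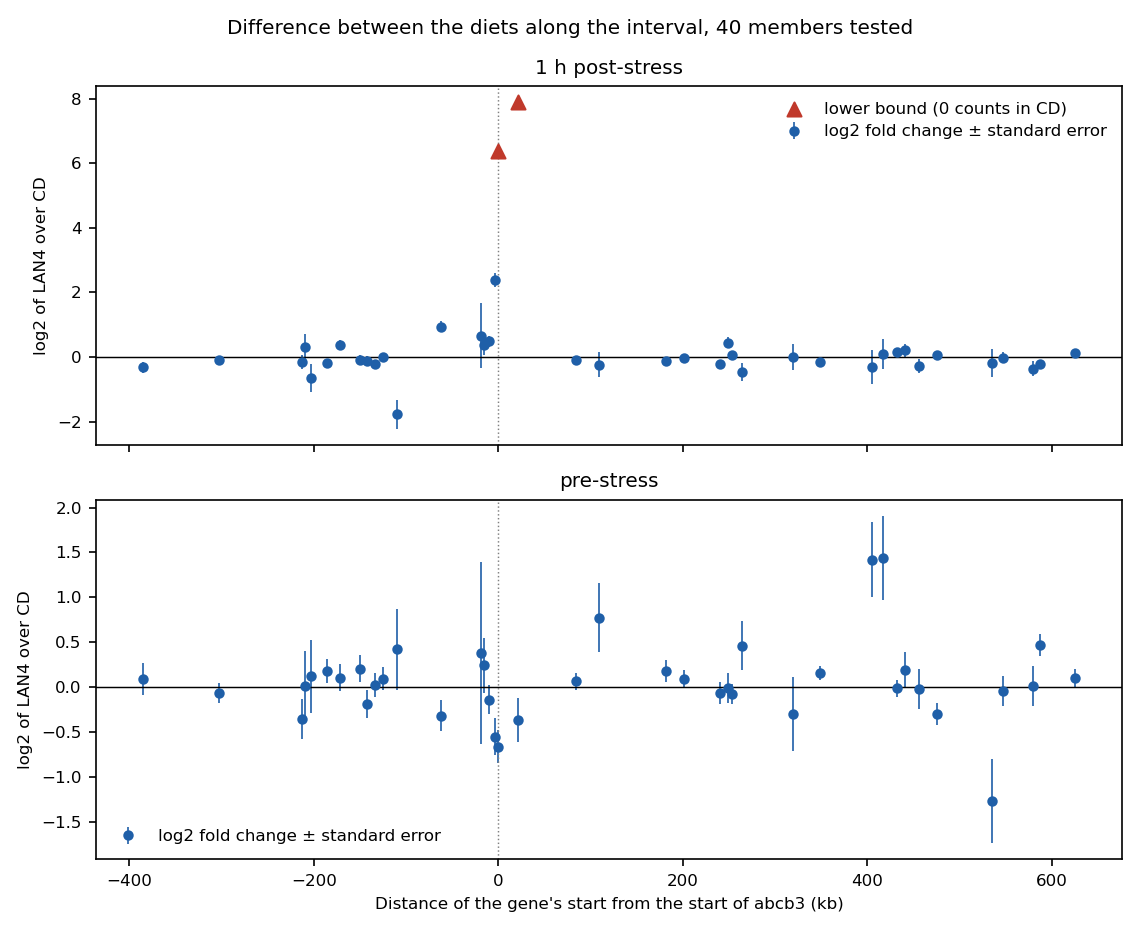
Log2 of LAN4 over CD for the 40 members tested, at 1 h (upper panel) and at pre-stress (lower panel), against the distance of each start from that of abcb3 in kb. Points are fitted log2 fold changes with standard errors derived from the F test, and triangles are lower bounds where all CD fish had 0 counts. At 1 h the highest values lie next to abcb3, and at pre-stress no member passed the adjusted threshold.

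At 1 h, the contrast that chose the interval, 3 members were called higher in LAN4 than in CD (LOC123730988, abcb3 and LOC123730958) and 0 lower, where 0.0151% of all genes were called (5 genes). The CPM of the diets did not overlap for 9 members, against 14.1% of all genes. Besides those 3 and ENSSSAG00000099702, LAN4 was above CD for LOC106588408, LOC106588400 and LOC106588399, and below it for ENSSSAG00000077419 and LOC106588375. LOC106588399, the gene before LOC123730988 on the same strand, measured 36.4, 45.9 and 48.0 CPM in LAN4 and 28.2, 29.6 and 35.4 CPM in CD. Members beyond brd2 had log2 fold changes between -0.48 and 0.44. On the other flank, before ENSSSAG00000077419, they lay between -0.65 (LOC106588410, with 0.328 to 0.738 CPM in these fish) and 0.37. DESeq2 called 4 members, ENSSSAG00000099702 being the fourth, and its share over all genes was not counted. By the interaction of diet and time the same 3 members were called, where 0.0182% of all genes were called.

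Between 1 h and pre-stress in CD, 5 members were called, where 1.6% of all genes were called. Lower at 1 h were LOC123730988, abcb3, LOC123730958 and ENSSSAG00000099702, and higher was zhx2b, with 18.6, 22.5 and 23.1 CPM at 1 h and 13.3, 16.3 and 14.6 CPM at pre-stress. These fish are partly those that chose the interval and the times were run on different lanes, so no p is given. The call of zhx2b was lost in 7 of 18 alternatives, among them leaving out any CD fish at pre-stress or either fish 2 or fish 3 of CD at 1 h. That of ENSSSAG00000099702 was lost without fish 2 of CD at 1 h. DESeq2 called 9 members, but its share over all genes was not counted, so this number cannot be set against the edgeR share. ENSSSAG00000077419 was 4.78-fold higher at 1 h in the means. It was not called by edgeR in the fit reported, and was called by DESeq2, with the replicate number as a block and without fish 1 of CD at 1 h.

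In LAN4, 1 member was called between 1 h and pre-stress, where 0.924% of all genes were called. ENSSSAG00000078766 had 5, 4 and 2 counts at 1 h and 21, 15 and 17 at pre-stress. The CD fish had 3, 8 and 4 counts at 1 h and 6, 11 and 6 at pre-stress. These counts are small, and the call was lost in 6 of 18 alternatives, among them leaving out fish 1 or fish 3 of LAN4 at pre-stress or fish 2 or fish 3 of LAN4 at 1 h. The members abcb3, LOC123730958 and LOC123730988 had log2 changes of -0.21, 0.05 and 0.13 in LAN4 (standard errors 0.19, 0.24 and 0.20). DESeq2 called 2 members here, LOC106588383 lower and LOC106588377 higher at 1 h, and its share over all genes was not counted.

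Of the class I pathway genes matched by symbol, only abcb3 and tapbp lie in the interval. Of the list of antigen presentation genes, 14 were matched by symbol and 13 were tested. Genes described only as class I histocompatibility antigens have no symbol in the table used and are not covered. Members with only a LOC number or an identifier were not assigned a role, so any pathway genes among them are not covered either. At pre-stress 0 of the 13 were called by edgeR and 0 by DESeq2, and 1 (abcb3) had an unadjusted p under 0.05. At 1 h abcb3 was among the genes on which the interval was selected. Of the other 12, 0 were called by edgeR or DESeq2, and 2 (psmb12 and psme1) had an unadjusted p under 0.05. Over all genes, 8.9% had such a p at 1 h and 9.4% at pre-stress by edgeR. The partner of abcb3 in the peptide pump, tap1 on chromosome 5, measured 74.6 ± 2.98 CPM in LAN4 and 68.8 ± 9.37 CPM in CD at 1 h (SD, n = 3 each), with 957 counts or more in every CD fish (adjusted p = 0.793 by edgeR). The proteasome activator gene psme1 on chromosome 19 measured 80.2 ± 4.80 CPM in LAN4 and 65.2 ± 4.83 CPM in CD (adjusted p = 0.53 by edgeR). The inducible proteasome subunit gene psmb8b on chromosome 14 measured 64.1 ± 2.02 CPM in LAN4 and 60.1 ± 5.35 CPM in CD. None of these was near 0 in any CD fish. The median log2 fold change of the list was -0.09 at pre-stress and 0.10 at 1 h, against -0.00 and 0.00 over all genes. Both medians include abcb3, so the 1 h value is not independent of the selection.

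Of the interferon response genes, a program that raises class I presentation in vertebrates, 10 were matched and 9 tested. At 1 h 0 were called by edgeR or DESeq2, with a median log2 fold change of -0.08. An unadjusted p under 0.05 was reached by 0 of them and by 8.9% of all genes. At pre-stress 0 were called by either tool, with a median of 0.10. An unadjusted p under 0.05 was reached by 2 of the 9 (irf-1 and ifi44) and by 9.4% of all genes. The T cell markers (4 genes) summed to between 79.1 and 93.4 CPM in LAN4 and between 87.0 and 101 CPM in CD at 1 h. At pre-stress they summed to between 67.7 and 72.2 CPM in LAN4 and between 71.4 and 82.1 CPM in CD. The ranges of the diets overlapped at both times. The part of T cell content in the level of abcb3 was not tested. Of the macrophage markers, both marco genes were at 0 in all 12 fish, so their sum is that of cd68 alone, with 215 to 268 CPM in LAN4 and 218 to 297 CPM in CD at 1 h.

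Outside the interval, the genes most like and least like abcb3 over the 12 fish were found by the Pearson correlation of log2 CPM. This is a description in which the 3 fish without abcb3 counts weigh most. The highest were ENSSSAG00000053789 (chromosome 25, r = 0.943), ENSSSAG00000109763 (chromosome 14, 0.94), ENSSSAG00000109138 (chromosome 15, 0.919), ENSSSAG00000009189 (chromosome 10, 0.918) and rassf9 (chromosome 10, 0.918). None of the 5 was at 3 counts or fewer in all 3 CD fish at 1 h, as abcb3 was. The nearest of them, ENSSSAG00000053789, averaged 6.41 CPM in LAN4 and 4.45 CPM in CD at 1 h. Within the interval r was 0.997 for LOC123730958 and 0.981 for LOC123730988.

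Of the 5 least like abcb3, those with the lowest r both lie on unplaced scaffolds and had their highest counts where abcb3 had none. ENSSSAG00000121164 (r = -0.978) had 0, 2 and 1 counts in LAN4 and 68, 67 and 63 in CD at 1 h, and between 0 and 2 in the 6 pre-stress fish. It was the only gene of the files that was on in all 3 CD fish at 1 h and off in the other 9. ENSSSAG00000059318 (r = -0.964) had 19, 43 and 18 counts in LAN4 and 1616, 1592 and 1028 in CD at 1 h. At pre-stress it had 9, 12 and 19 counts in LAN4 and 26, 26 and 34 in CD. The groups did not overlap for either gene at 1 h, and neither has a RefSeq name here. The other 3, LOC106580321, LOC106561944 and LOC106579241, were well expressed in all fish with r between -0.914 and -0.895.

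**Figure D5:**
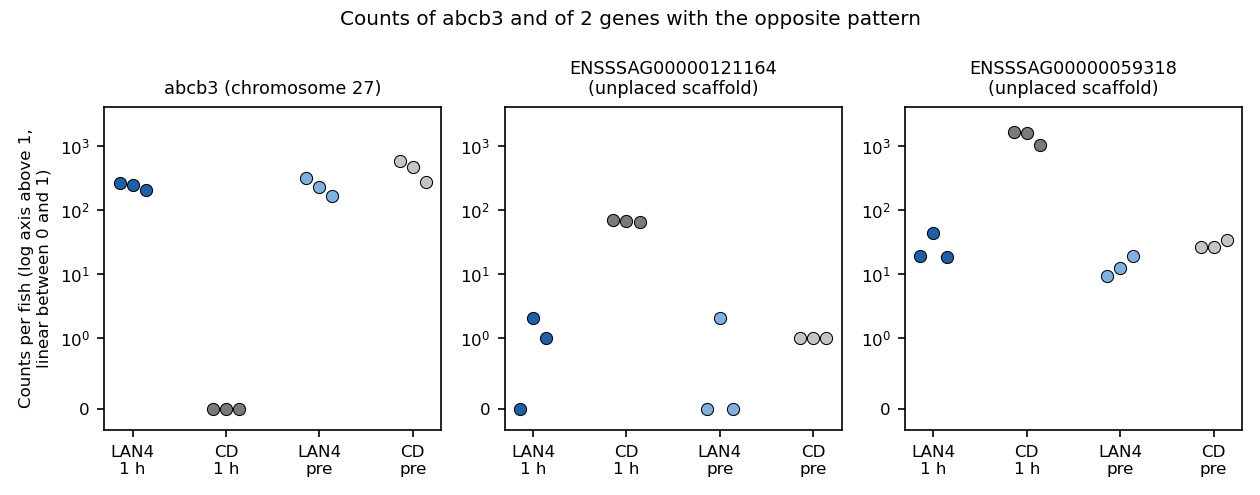
Counts of abcb3 and of ENSSSAG00000121164 and ENSSSAG00000059318, 2 genes on unplaced scaffolds, in each fish (points, 3 per group) on a log axis that is linear below 1. In the CD fish at 1 h abcb3 has 0 counts and the scaffold genes have 63 to 68 and 1028 to 1616, while the other 9 fish have 165 to 566 counts of abcb3, at most 2 of the first scaffold gene and 9 to 43 of the second.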

How the data were processed

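Gill RNA of 3 fish per diet and time was sequenced as paired-end reads. The authors aligned them to assembly Ssal_v3.1 with an nf-core pipeline. They deposited raw counts per gene and library, made with featureCounts (1.5.1 in the file headers) as fragments, reverse-stranded, without normalization, leaving out fragments with several alignments or overlapping genes. Near-identical copies can therefore lose fragments, and 6 members overlap a gene of the same strand. The libraries were grouped by the GEO labels. With R 4.3.3, edgeR 4.0.16 (filterByExpr, TMM, robust glmQLFit, glmQLFTest) was fitted to the 12 libraries with 1 mean per group, and 5 contrasts were adjusted over 33024 genes. CPM are counts per 1000000 of TMM-normalized library size. Standard errors of log2 fold changes were derived from the edgeR test. Each is the size of the change divided by the square root of its F statistic. The fit was also run on simulated counts, with changes set between the diets at pre-stress only. Its outcome is not given here, and it does not cover the 1 h contrast or members off in some fish. Alternatives were DESeq2 1.42.0 (size factors or test), no filter, only the groups compared, all 18 libraries, the replicate number as a block, and leaving out each library. With all 18 libraries the fit takes in the 6 h libraries, which held 0 counts for every member. Calls of members kept or lost in it cannot show how firm they are. RefSeq names were given where spans overlapped by at least 0.5 of both.

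Members, lists and rules were chosen with earlier results of these data known. Values are given for members called in any comparison, for members on in some fish and off in others, for the 10 others of at least 1 CPM with the widest range of log2 CPM, for antigen presentation genes, and for the 5 genes most and the 5 least correlated with abcb3. Other members and genes (brd2, slc39a7, qrfp, tap1, psme1, psmb8b, LOC106588408, LOC106588375, LOC106588377, LOC106588410, cd68 and LOC106588387) were named after their values were seen. No sequences are shown.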

Additional observations from a re-analysis of the deposited data

Results flagged for a closer look

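For 3 members the difference between the diets was itself different at 1 h and at pre-stress by the interaction term of edgeR, at an adjusted p under 0.05, where 0.0182% of all genes were called (6 genes). The interaction shares the 1 h libraries with the contrast that chose the interval, so it is given as a description. In log2 it was 2.93 for LOC123730988 (standard error 0.30), 11.52 for abcb3 and 12.74 for LOC123730958. The values of abcb3 and LOC123730958 depend on the prior count, because CD at 1 h had 0 counts of both, and are not bounds. LAN4 was above CD at 1 h for each of the 3, and the mean in LAN4 was 0.681, 0.631 and 0.771 of that in CD at pre-stress for LOC123730988, abcb3 and LOC123730958. None of the 3 was called at pre-stress. Their log2 fold changes there, in that order, were -0.554, -0.665 and -0.372 with all fish. Without CD fish 1 at pre-stress they were -0.254, -0.462 and -0.059. With all 18 libraries in the fit, LOC123730988 was not called. That fit adds the 6 h libraries, in which every member had 0 counts. The lost call therefore cannot show how firm the result is.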

How the results depend on the processing

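At pre-stress, 0 members were called in either direction under each of the 18 alternatives, and the lowest adjusted p of a named member over them was 0.0826 (zhx2b, DESeq2 test). These include the fit with all 18 libraries, in which the 6 h libraries held 0 counts for every member. Neither here nor in the numbers below can that fit show how firm a result is. Of the 18 named members, 5 changed sign at pre-stress under at least 1 alternative without being called. Without CD fish 3 at pre-stress the log2 fold change of LOC106588400 was -0.21, against 0.38 with all fish, since that fish alone had 0 counts of it. At 1 h, 3 members were called higher in LAN4 in the fit reported, and between 3 and 4 when 1 fish was left out, while 0 to 1 were lower, the 1 being ENSSSAG00000077419 without fish 1 of CD at 1 h. The interval was chosen on this contrast, so calls kept in it are not independent of that choice and lend no support. In CD, 1 member was called higher at 1 h than at pre-stress, against 3 with the DESeq2 test, 0 with only the groups compared, 0 with all 18 libraries and between 0 and 2 with 1 fish left out. In CD between 3 and 5 were lower with 1 fish left out. In LAN4, 1 member was called higher at 1 h with the DESeq2 test and 0 otherwise, and 1 was called lower, against 0 with only the groups compared and between 0 and 1 with 1 fish left out. Shares over all genes were not counted under the alternatives. A change in the number of members called may thus go with a change in calls over all genes, which was not tested. For the interaction between 3 and 4 were higher with 1 fish left out. It shares the 1 h libraries with the contrast that chose the interval, so the same limit holds. With off set at 10 counts or fewer, 5 members were on in some fish and off in others, ENSSSAG00000078781 and ENSSSAG00000121816 being added. With 1 fish left out the number was between 2 and 3, since LOC106588400 rests on 1 fish. The cause of these changes was not tested, apart from those that follow from leaving out the only fish concerned. Same-numbered fish did not all deviate together in the comparisons with 1 h fish, and the fit reported did not pair fish by number. Whether the numbers pair fish at pre-stress was not settled by this check. With the replicate block, 2 members were called higher at 1 h in CD, and no other number of calls changed. At pre-stress each LAN4 fish correlated best with the CD fish of its own number, with r between 0.0953 and 0.157 over genes. Members with few counts, such as ENSSSAG00000078766, are limited by depth.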
